A study of Mus musculus with 16 samples.

Results

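Primordial oocytes rest in flat follicles until they are recruited to grow, and the first stretch of growth was followed here as the change in RNA between oocytes of 10–30 μm and oocytes of 40–45 μm in diameter. Both classes were wild-type oocytes of C57BL/6 mice (C57BL/6Babr in the methods), with 2 libraries each (A and B), and each library was made from a pool of oocytes. Per the methods, the ovaries were digested with collagenase and trypsin and single oocytes were picked and washed to remove somatic cells. The larger oocytes were taken from older pups, so that size and age cannot be told apart. Nothing says that A and B came from separate collections of mice, so that the p-values measure the spread between these libraries, which may be technical. Total RNA was sequenced with strand-specific libraries, and levels are given as RPKM, reads normalised for exon length and library size, so that they are shares of the RNA and not amounts per oocyte. Of 25965 genes in the table, the 10064 with at least 0.5 RPKM in 2 of these 4 libraries were compared.

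When an oocyte starts to grow, signals through the receptor Kit release it from arrest by the transcription factor Foxo3, and the oocyte then makes the zona pellucida, ligands that act on granulosa cells and the stores of RNA and protein on which the early embryo depends. The transcription factors Figla, Nobox, Sohlh1 and Lhx8 act in the formation of follicles and at the start of growth. Meiosis has already been halted at the end of prophase, after homologous chromosomes were paired by the synaptonemal complex.

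Expression was higher at 40–45 μm for 1260 genes (12.5% of those tested) and lower for 979 (9.73%), with an adjusted p under 0.05 in limma, the test behind every adjusted p below. In 1259 of the genes that rose and in all 979 that fell, both libraries of one class lay above both of the other. Most changes were small: 239 genes rose and 92 fell by 2-fold or more, and the median log2 change was 0.60 among the former 1260 and -0.57 among the 979. With only the 4 libraries of these classes in the fit, 591 rose and 371 fell. The number of calls also depended on single libraries. Without the 10–30 μm library A, the 10–30 μm library B, the 40–45 μm library A or the 40–45 μm library B, 846, 1541, 508 and 942 genes rose and 424, 1398, 287 and 575 fell, and 477 of the 1260 and 234 of the 979 were called in all 4. With RPKM as deposited, without scaling between libraries, 920 rose and 1518 fell, so that 37.7% of calls were rises against 56.3% with scaling. Leaving out the scaling moved the median of all genes to -0.08 (log2). The filter let in 117 of the 1260 through the larger class alone and 156 of the 979 through the smaller class alone, and such genes had to differ to be tested. Of the genes named below these are Oog3, Spry4, Grn and Hspa1a among those that rose, and Col3a1, Bid, Hexa, Id1, Hist1h2ap, Hist1h3b and Mageb4 among those that fell. They are given as a description with no p. The gene lists below were chosen with earlier results of these data known, and members of a gene family are not independent of each other. Shares of a list set beside the shares of all genes are thus a description and not a test.

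**Figure D1:**
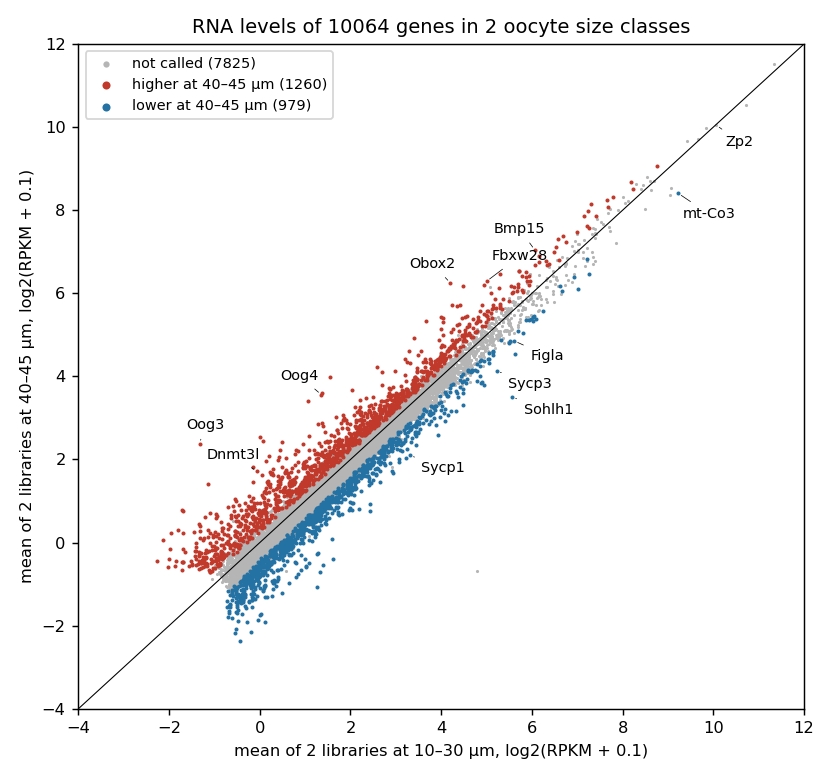
Mean level of each of the 10064 genes at 10–30 μm (horizontal axis) and at 40–45 μm (vertical axis), both as log2 of RPKM plus 0.1; each point is 1 gene, red or blue where the adjusted p was under 0.05, and the line marks equal levels. The 1260 red and 979 blue points lie close to the line, apart from a few such as Oog3 above it and Sohlh1 below it.

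At 10–30 μm the tested genes held 22846414 reads in library A and 38929498 reads in library B, and at 40–45 μm 35931639 reads and 47177169 reads, so that counting error is small except near the filter. Replicates differed by a median of 0.193 (log2) at 10–30 μm and 0.154 at 40–45 μm, and library B of the smaller class was nearer to library B of the larger class (0.177) than to its own replicate. The differences were smaller at 50–55 μm (0.113) and 60–65 μm (0.094), whose libraries also enter the spread behind the p-values. Markers of the oocyte were all present, with a summed level of 1651 and 1721 RPKM at 10–30 μm and 1602 and 1902 RPKM at 40–45 μm. Granulosa markers summed to 2.29 and 2.71 RPKM at 10–30 μm and 3.65 and 3.64 RPKM at 40–45 μm, and 9 of 14 stayed below 0.1 RPKM in all 4 libraries. Of these, the defining markers Foxl2 and Fshr were below 0.1 RPKM throughout. Most of the rise of this sum was in Nr5a2, which went from 1.29 and 1.73 RPKM to 2.43 and 2.66 RPKM (log2 change 0.81 ± 0.12, adjusted p = 0.003). Stroma markers were at 4.11 and 2.98 RPKM at 10–30 μm and 1.91 and 0.829 RPKM at 40–45 μm, carried by collagens such as Col3a1, which went from 1.16 and 0.796 RPKM to 0.405 and 0.2 RPKM (log2 change -1.38 ± 0.29). Endothelial markers summed to 1.14 and 1.198 RPKM at 10–30 μm and 2.44 and 2.14 RPKM at 40–45 μm. Pecam1 held most of this rise, from 0.567 and 0.531 RPKM to 1.57 and 1.38 RPKM, and 3 of 6 (Cdh5, Emcn and Kdr) stayed below 0.1 RPKM in all libraries. Blood markers summed to 1.36 and 1.21 RPKM at 10–30 μm and 1.26 and 1.35 RPKM at 40–45 μm, with 7 of 8 below it. Markers of the surface epithelium summed to 0.605 and 0.533 RPKM at 10–30 μm and 1.53 and 1.11 RPKM at 40–45 μm, with 4 of 6 below it. Krt8 held most of that rise, from 0.507 and 0.415 RPKM to 1.28 and 0.939 RPKM. The stroma sum was thus lower at 40–45 μm, and the granulosa, endothelial and epithelial sums were higher. In such pools the number of cells of a type and the RNA per cell cannot be told apart, and the part of these markers in the results below was not tested.

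Among the 10 genes of known function with the largest rises at a mean of at least 5 RPKM, 6 belonged to the Oog, Nlrp9 and Obox families, which are expressed mainly in oocytes. Oogenesins are leucine-rich proteins of the PRAME family, many of them encoded on chromosome 4. Oog3 had the largest rise, from 0.367 and 0.229 RPKM to 7.45 and 2.76 RPKM (log2 change 3.63 ± 0.42). Oog4 stood at 2.57 and 2.35 RPKM at 10–30 μm and 13.6 and 9.84 RPKM at 40–45 μm (log2 change 2.27 ± 0.17, adjusted p = 5.03e-04). The gene models C87977, Gm13023 and Gm13103, which RefSeq names Pramel29, Pramel25 and Pramel27, lie on the same chromosome and rose with log2 changes of 2.57 ± 0.22, 2.48 ± 0.21 and 2.38 ± 0.20 (adjusted p = 5.94e-04 for each). Of the 7 tested oogenesin and PRAME-like genes, of 14 in the table, 6 rose (12.5% of all genes did), 2 of them let in through the larger class alone, and none fell. With RefSeq names, which were looked up after the values were seen, 15 of 17 rose, 3 of them let in that way. Oog4 was higher still in larger oocytes, with 38.4 and 34.6 RPKM at 50–55 μm and 62.99 and 55.1 RPKM at 60–65 μm, and so was Oog3, with 40.1 and 27.3 RPKM at 50–55 μm and 70.7 and 61.1 RPKM at 60–65 μm.

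Homeobox genes of the Obox family, transcription factors of the oocyte and early embryo, all rose, 4 of 4 tested with Sebox, of 6 in the table, against 12.5% of all genes. Obox2 was at 16.8 and 19.7 RPKM at 10–30 μm and 88.6 and 63.5 RPKM at 40–45 μm (log2 change 2.12 ± 0.18, adjusted p = 5.94e-04) and Obox1 at 11.6 and 13.4 RPKM at 10–30 μm and 43.96 and 36.9 RPKM at 40–45 μm (log2 change 1.77 ± 0.14, adjusted p = 5.03e-04). Sebox went from 2.47 and 2.48 RPKM to 7.96 and 6.46 RPKM (log2 change 1.58 ± 0.14, adjusted p = 5.94e-04), and Obox5 from 16.9 and 15.7 RPKM to 44.4 and 34.4 RPKM (log2 change 1.34 ± 0.16, adjusted p = 0.0012). In all 4 settings that left out a library, these 4 genes stayed called. Near-identical copies exist for Obox and Oog genes, and reads were kept at 1 alignment, so that their reads may be shared out among copies.

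NLRP proteins are found in the egg cytoplasm and, for some members, in the subcortical maternal complex that supports the first cleavages. Of 12 tested family members 8 rose (66.7% against 12.5% of all genes) and none fell. Nlrp9c went from 1.08 and 0.827 RPKM to 6.68 and 4.005 RPKM (log2 change 2.41 ± 0.25, adjusted p = 8.91e-04). Nlrp9b was at 5.28 and 6.58 RPKM at 10–30 μm and 18.1 and 18.98 RPKM at 40–45 μm (log2 change 1.72 ± 0.13, adjusted p = 5.07e-04), and Nlrp9a and Nlrp4a had log2 changes of 1.21 ± 0.12 and 0.98 ± 0.13. The most abundant members were not called, Nlrp14 at 941 and 901 RPKM at 10–30 μm and 1091 and 922 RPKM at 40–45 μm (95% confidence interval of the log2 change -0.14 to 0.55, adjusted p = 0.36) and Nlrp5 at 396 and 426 RPKM at 10–30 μm and 383 and 451 RPKM at 40–45 μm (95% confidence interval of the log2 change -0.15 to 0.35, adjusted p = 0.55). Among the 7 tested genes of the subcortical maternal complex, Nlrp2 alone was called (14.3%, near the 12.5% of all genes), from 19.8 and 20.5 RPKM to 39.5 and 35.3 RPKM (log2 change 0.97 ± 0.11, adjusted p = 0.0013).

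The F-box proteins with WD repeats of the chromosome 9 cluster, such as Fbxw28, rose in 12 of 13 tested cases (92.3% against 12.5% of all genes), and without each library in turn 12, 12, 10 and 12. Fbxw19 went from 17.02 and 15.9 RPKM to 47.3 and 37.9 RPKM (log2 change 1.44 ± 0.15, adjusted p = 8.73e-04), Fbxw22 from 10.05 and 9.41 RPKM to 26.5 and 21.8 RPKM (log2 change 1.38 ± 0.14, adjusted p = 8.32e-04) and Fbxw28 from 33.6 and 30.4 RPKM to 86.9 and 69.5 RPKM (log2 change 1.36 ± 0.15, adjusted p = 0.001). The 13th, Fbxw17, lies on chromosome 13 and was at 2.04 and 1.99 RPKM at 10–30 μm and 2.04 and 1.96 RPKM at 40–45 μm (95% confidence interval of the log2 change -0.20 to 0.34, adjusted p = 0.7). Summed over the list, the RPKM after scaling between libraries was 641 and 575 at 10–30 μm and 1181 and 999.8 at 40–45 μm.

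Other single genes with large rises were Upp1, uridine phosphorylase, from 2.81 and 2.16 RPKM to 14.7 and 9.54 RPKM (log2 change 2.301 ± 0.24, adjusted p = 8.91e-04), and the cytokine Il17f, from 1.42 and 1.19 RPKM to 6.45 and 3.97 RPKM (log2 change 1.97 ± 0.23, adjusted p = 0.0013). The lysosomal protease Ctsh went from 2.17 and 2.52 RPKM to 7.88 and 6.36 RPKM (log2 change 1.64 ± 0.13, adjusted p = 5.94e-04). Insm1, a zinc finger factor, rose from 1.67 and 3.37 RPKM to 7.003 and 6.87 RPKM (log2 change 1.59 ± 0.26, adjusted p = 0.0046). Gm813, named Ftdc1 in RefSeq, rose from 23.3 and 21.02 RPKM to 84.7 and 59.8 RPKM (log2 change 1.76 ± 0.19, adjusted p = 9.27e-04).

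Promoters of these genes were compared by their last 200 bases upstream of the start, for 7148 of the 10064 genes whose start matched a RefSeq promoter (build GRCm38) within 500 bases. The 6 shown are examples of promoters with the short motifs named next and were chosen after the values were seen, so that they do not stand for the share of genes that hold one. The promoter of Fbxw19, which also rose, held none of them. Capitals mark CAGGTG and CACGTG, forms of the E-box, TAATTG, an element bound by Nobox, TGATTG, an element bound by Lhx8, TATAAA and CCAAT, searched on both strands, where TGATTG and CCAAT can overlap. Each line gives the 200 bases upstream of the start, and the first 3 genes rose and the next 3 fell.

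Oog4, chr4:143450325-143450524, minus strand: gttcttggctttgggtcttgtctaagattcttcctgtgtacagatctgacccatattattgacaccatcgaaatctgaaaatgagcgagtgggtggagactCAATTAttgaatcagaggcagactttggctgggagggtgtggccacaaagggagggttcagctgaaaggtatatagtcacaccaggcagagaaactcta
Nlrp9c, chr7:26403701-26403900, minus strand: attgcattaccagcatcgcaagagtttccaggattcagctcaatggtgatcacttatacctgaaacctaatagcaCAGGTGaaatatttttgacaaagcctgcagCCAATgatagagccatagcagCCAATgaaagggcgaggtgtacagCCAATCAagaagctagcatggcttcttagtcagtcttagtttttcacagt
Nlrp9b, chr7:20007823-20008022, plus strand: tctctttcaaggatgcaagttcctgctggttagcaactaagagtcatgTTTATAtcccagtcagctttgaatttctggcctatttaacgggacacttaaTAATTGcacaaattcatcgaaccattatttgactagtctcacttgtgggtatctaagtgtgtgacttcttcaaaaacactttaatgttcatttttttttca
Sohlh1, chr2:25847249-25847448, minus strand: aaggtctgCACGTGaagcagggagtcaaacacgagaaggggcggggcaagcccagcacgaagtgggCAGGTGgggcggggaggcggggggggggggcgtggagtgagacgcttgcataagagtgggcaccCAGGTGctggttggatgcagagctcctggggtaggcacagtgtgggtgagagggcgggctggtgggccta
Sycp1, chr3:102936101-102936300, minus strand: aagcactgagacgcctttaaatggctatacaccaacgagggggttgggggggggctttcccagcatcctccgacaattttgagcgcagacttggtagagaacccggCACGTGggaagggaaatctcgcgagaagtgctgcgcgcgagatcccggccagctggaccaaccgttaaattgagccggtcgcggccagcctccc
Syce1, chr7:140787855-140788054, minus strand: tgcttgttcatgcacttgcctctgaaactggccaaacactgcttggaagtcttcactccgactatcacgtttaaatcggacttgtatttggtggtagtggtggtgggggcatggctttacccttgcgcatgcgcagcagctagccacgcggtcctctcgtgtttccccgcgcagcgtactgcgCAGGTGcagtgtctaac

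TAATTG, or its reverse complement, was in 9.29% of 140 promoters of genes that rose at least 2-fold, in 2.63% of 76 that fell at least 2-fold, in 3.19% of all tested genes and in 5.67% of all 32505 RefSeq promoters of this length. Over all genes that rose, with 843 promoters, the share was 4.86%, and over all that fell, with 719, it was 2.36%. CACGTG was in 21.1% of promoters of genes that fell at least 2-fold and 4.29% of those that rose at least 2-fold, with 8.32% over tested genes and 5.28% over all promoters. The gap was smaller over all genes that fell (12.4%) and all that rose (7.95%). CAGGTG was in 20% of promoters of genes that rose at least 2-fold and 17.1% of those that fell, TGATTG in 16.4% and 6.58%, and CCAAT in 33.6% and 35.5%, against 12.3%, 13.9% and 35.2% over tested genes. TATAAA was in 11.4%, 6.58%, 4.07% and 9.88% in the same order as for TAATTG, and in 5.81% of all that rose and 4.31% of all that fell. These shares have no test. The median number of CpGs in the 200 bases was 4 for genes that rose at least 2-fold, 12 for those that fell at least 2-fold, 12 for all that rose, 13 for all that fell and 15 for tested genes, and its part in the motif shares was not tested.

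Of the growth factors secreted by the oocyte 5 of 5 tested rose, against 12.5% of all genes, although without each library in turn, in the order above, 3, 3, 2 and 3 were called. Bmp15, a TGF-beta family ligand that acts on granulosa cells, was at 66.4 and 67.1 RPKM at 10–30 μm and 139 and 124 RPKM at 40–45 μm (log2 change 1.06 ± 0.11, adjusted p = 9.27e-04). Fgf8 went from 11.1 and 12.1 RPKM to 25.5 and 22.96 RPKM (log2 change 1.14 ± 0.11, adjusted p = 7.80e-04). Gdf9, the partner of Bmp15, was already abundant and rose little, from 419 and 449 RPKM to 501 and 561 RPKM (log2 change 0.37 ± 0.11, adjusted p = 0.045), and it was called in none of the 4 leave-outs. The zona pellucida genes were at high levels in both classes and 0 of 3 was called. Zp2 stood at 1068 and 1074 RPKM at 10–30 μm and 998 and 1118 RPKM at 40–45 μm (95% confidence interval of the log2 change -0.24 to 0.36, adjusted p = 0.76). Zp3, which builds zona filaments with Zp2, was at 772 and 840.3 RPKM at 10–30 μm and 722 and 962 RPKM at 40–45 μm (95% confidence interval of the log2 change -0.19 to 0.46, adjusted p = 0.54). Zp1, which cross-links its filaments, was at 222 and 292 RPKM at 10–30 μm and 283 and 359 RPKM at 40–45 μm (95% confidence interval of the log2 change 0.07 to 0.74, adjusted p = 0.083).

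Transcription factors of follicle formation were unequal. Sohlh1 had the largest fall among called genes with a mean of at least 5 RPKM in either class, from 49.6 and 44.96 RPKM to 8.99 and 13.4 RPKM (log2 change -2.01 ± 0.22, adjusted p = 9.26e-04), and it went down to 2.98 and 3.51 RPKM at 50–55 μm and 1.17 and 1.74 RPKM at 60–65 μm. Its partner Sohlh2 fell from 8.36 and 8.18 RPKM to 3.16 and 4.69 RPKM (log2 change -1.001 ± 0.19, adjusted p = 0.0087), and Figla from 52.7 and 45.01 RPKM to 28.7 and 28.8 RPKM (log2 change -0.67 ± 0.12, adjusted p = 0.0068). Nobox was at 55.99 and 58.3 RPKM at 10–30 μm and 44.4 and 55.5 RPKM at 40–45 μm (95% confidence interval of the log2 change -0.37 to 0.13, adjusted p = 0.46) and Lhx8 at 16.9 and 18.1 RPKM at 10–30 μm and 15.6 and 16.001 RPKM at 40–45 μm (95% confidence interval of the log2 change -0.29 to 0.17, adjusted p = 0.7). Of 16 tested factors 6 fell (37.5% against 9.73% of all genes) and 2 rose (12.5%, the share over all genes), among them the stem cell factor Sall4, with 4.83 and 9.66 RPKM at 10–30 μm and 10.7 and 14.9 RPKM at 40–45 μm (log2 change 0.96 ± 0.27, adjusted p = 0.039). Without each library in turn the falls numbered 4, 5, 2 and 4 and the rises 0, 3, 0 and 0, and Sall4 was called in 1 of 4.

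**Figure D2:**
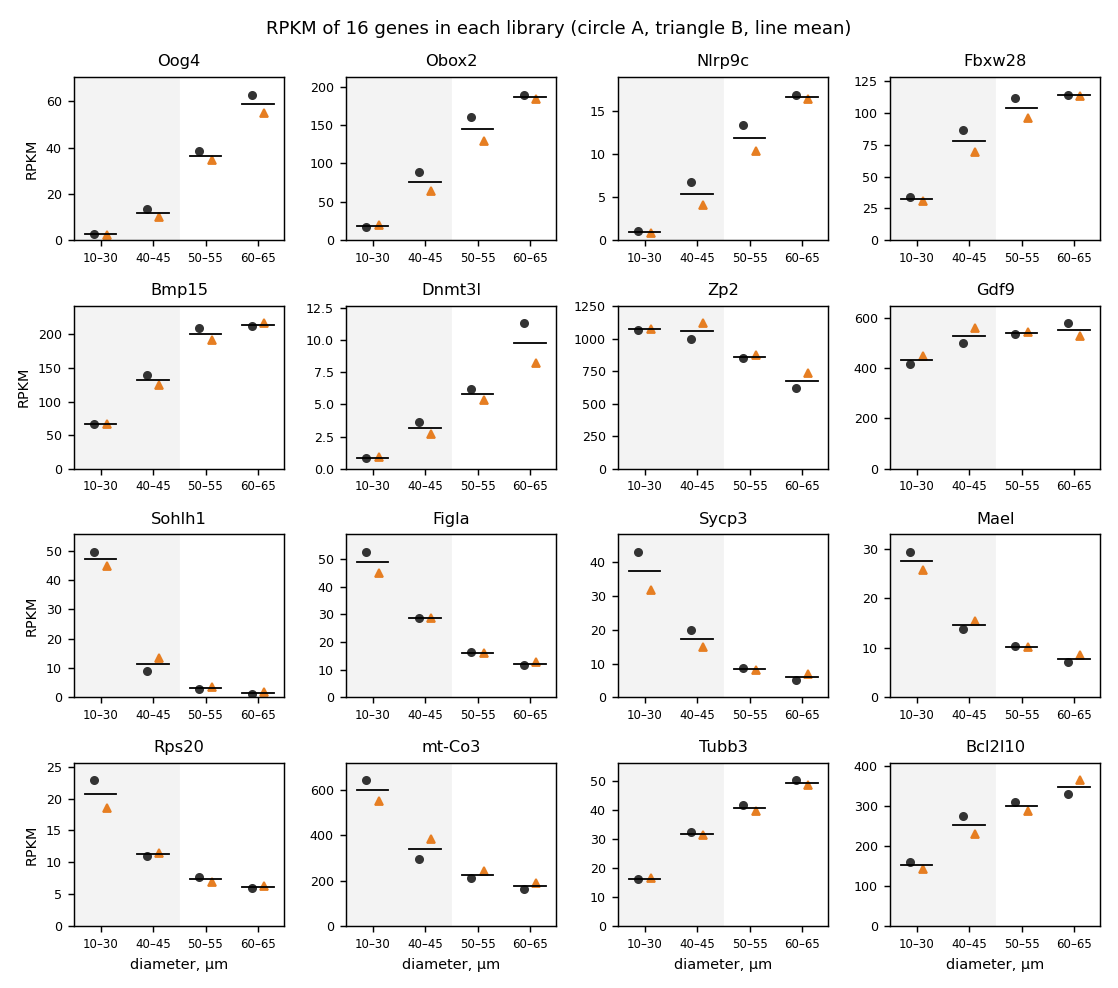
RPKM of 16 genes in each library of 4 diameter classes (horizontal axis, μm); circles are library A, triangles library B, lines the mean, and the classes compared here are shaded. Obox2 was at 16.8 and 19.7 RPKM at 10–30 μm and 88.6 and 63.5 RPKM at 40–45 μm, and Sohlh1 went the other way.

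Neither Kit nor Foxo3 was called. Kit was at 24.9 and 38.04 RPKM at 10–30 μm and 23.3 and 33.4 RPKM at 40–45 μm (95% confidence interval of the log2 change -0.55 to 0.43, adjusted p = 0.87) and Foxo3 at 10.3 and 15.5 RPKM at 10–30 μm and 13.5 and 16.8 RPKM at 40–45 μm (95% confidence interval of the log2 change -0.06 to 0.71, adjusted p = 0.2). Over the 20 tested genes of the Kit, PI3K and mTOR pathway 2 rose and 2 fell (10% and 10%, near the 12.5% and 9.73% over all genes), and without each library in turn 0, 2, 0 and 1 rose and 0, 1, 0 and 1 fell. Of the genes induced by ERK signalling, Spry4, an inhibitor of receptor tyrosine kinase signalling let in through the larger class alone, went from 0.259 and 0.448 RPKM to 2.65 and 2.46 RPKM (log2 change 2.65 ± 0.20). Dusp1, a MAP kinase phosphatase, went from 0.765 and 1.35 RPKM to 2.46 and 2.55 RPKM (log2 change 1.29 ± 0.22, adjusted p = 0.0056). In the list of immediate early genes, 3 of 7 tested rose (42.9% against 12.5% of all genes) and 0 fell. Of 6 tested feedback genes, of 14 in the table, 4 rose, among them Spry4, against 12.5% of all genes, with 2, 5, 2 and 2 without each library in turn.

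Of 28 tested genes of meiotic prophase, 10 fell (35.7% against 9.73% of all genes) and 1 rose; without each library in turn the falls numbered 5, 9, 8 and 8. Tex11, an X-linked gene of crossover formation, went from 2.599 and 2.02 RPKM to 0.793 and 0.656 RPKM (log2 change -1.46 ± 0.17, adjusted p = 0.0011). Syce1 and Sycp1, parts of the synaptonemal complex, went from 6.13 and 4.48 RPKM to 1.62 and 1.98 RPKM (log2 change -1.42 ± 0.18, adjusted p = 0.0018) and from 10.1 and 9.56 RPKM to 5.404 and 2.96 RPKM (log2 change -1.196 ± 0.26, adjusted p = 0.015). The axis protein Sycp3 was at 43.1 and 31.7 RPKM at 10–30 μm and 20.001 and 14.8 RPKM at 40–45 μm (log2 change -1.02 ± 0.22, adjusted p = 0.015), called in 2 of 4 leave-outs. Tex15, needed for meiotic recombination, was at 21.8 and 18.1 RPKM at 10–30 μm and 9.18 and 8.57 RPKM at 40–45 μm (log2 change -1.07 ± 0.14, adjusted p = 0.0018). Syce2, another part of the complex, was at 42.2 and 39.9 RPKM at 10–30 μm and 40.5 and 38.2 RPKM at 40–45 μm (95% confidence interval of the log2 change -0.22 to 0.26, adjusted p = 0.91). Among 16 tested piRNA genes, which silence transposons in germ cells, 5 fell (31.2%) and 1 rose, and without each library in turn 4, 5, 3 and 4 fell. Mov10l1, a helicase of piRNA synthesis, went from 9.46 and 9.14 RPKM to 3.35 and 4.67 RPKM (log2 change -1.13 ± 0.17, adjusted p = 0.0039), Mael from 29.3 and 25.7 RPKM to 13.8 and 15.5 RPKM (log2 change -0.82 ± 0.13, adjusted p = 0.0043) and Piwil2 from 13.3 and 15.3 RPKM to 7.04 and 8.73 RPKM (log2 change -0.77 ± 0.11, adjusted p = 0.0029). Ddx4 and Dazl, general germ-cell markers, were at 30.5 and 32.6 RPKM at 10–30 μm and 30.1 and 27.6 RPKM at 40–45 μm (95% confidence interval of the log2 change -0.28 to 0.19, adjusted p = 0.77) and 73.5 and 60.99 RPKM at 10–30 μm and 71.5 and 55.99 RPKM at 40–45 μm (95% confidence interval of the log2 change -0.39 to 0.39, adjusted p = 0.998).

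Among the 10 named genes with the largest falls at a mean of at least 5 RPKM, those outside these groups were Marcksl1, Ift27, Eif4ebp1, Fkbp9 and Lonrf3. Marcksl1, an actin-binding protein, went from 4.85 and 5.7998 RPKM to 1.23 and 1.95 RPKM (log2 change -1.63 ± 0.17, adjusted p = 8.73e-04). Ift27, a part of the ciliary transport machinery, fell from 17.1 and 13.4 RPKM to 5.62 and 6.26 RPKM (log2 change -1.26 ± 0.15, adjusted p = 0.0015). Eif4ebp1, a repressor of cap-dependent translation, fell from 7.32 and 7.7002 RPKM to 2.22 and 4.01 RPKM (log2 change -1.22 ± 0.22, adjusted p = 0.0076). Fkbp9 went from 6.39 and 5.98 RPKM to 2.39 and 2.87 RPKM (log2 change -1.13 ± 0.12, adjusted p = 9.75e-04), and Lonrf3 from 8.19 and 6.63 RPKM to 3.23 and 3.16 RPKM (log2 change -1.101 ± 0.13, adjusted p = 0.0014).

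**Figure D3:**
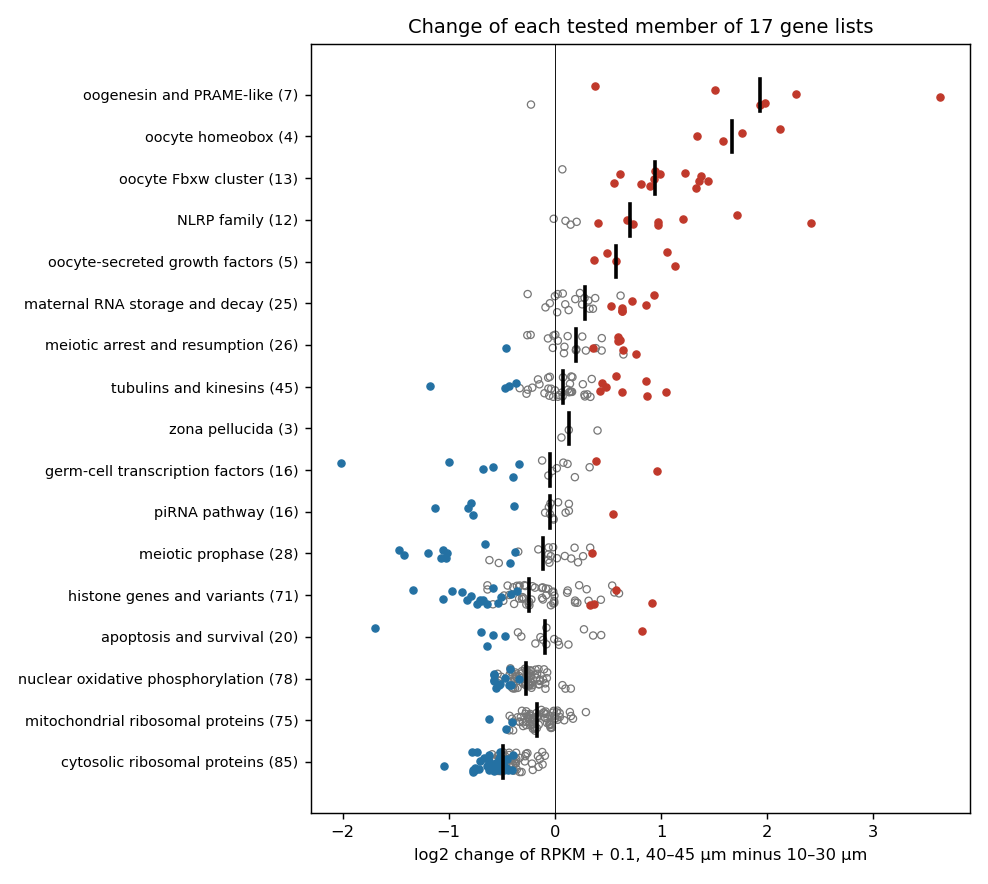
Log2 change of each tested member of 17 lists (horizontal axis, 40–45 μm minus 10–30 μm), with the number tested in brackets; red points rose, blue points fell, open points were not called, and bars are medians. All 4 Obox and Sebox genes lie right of 0, and all 85 cytosolic ribosomal proteins left of it.

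All 85 tested genes of cytosolic ribosomal proteins had a log2 change below 0, with a median of -0.49, and 39 fell by the test (45.9% against 9.73% of all genes). The count rested on single libraries: without each in turn, in the order above, it was 9, 75, 5 and 15, where 424, 1398, 287 and 575 of all genes fell, while the median stayed below 0. Their summed scaled RPKM was 3788 and 2773 at 10–30 μm and 2436 and 2364 at 40–45 μm, so that library A at 10–30 μm stood above the other 3. Rps20 went from 22.8 and 18.5 RPKM to 10.96 and 11.5 RPKM (log2 change -0.78 ± 0.14, adjusted p = 0.006) and Rps3a from 9.74 and 6.89 RPKM to 3.84 and 3.58 RPKM (log2 change -1.04 ± 0.18, adjusted p = 0.0064), whereas the abundant Rps12 was at 189 and 135 RPKM at 10–30 μm and 118 and 115 RPKM at 40–45 μm (95% confidence interval of the log2 change -0.83 to 0.09, adjusted p = 0.23). Processed copies of such genes exist, so single values are uncertain. Shorter genes had lower changes in general, from a median of -0.32 up to 500 bp of exon to 0.07 over 8000 bp, and the difference between libraries B and A at 10–30 μm correlated with log exon length (r = 0.324 over 9056 genes, a description). Among genes of 1000 to 2000 bp the ribosomal proteins had a median of -0.42 and the others -0.07. The part of length in the counts was not tested.

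Of 78 tested nuclear genes of oxidative phosphorylation 12 fell (15.4% against 9.73% of all genes) and 0 rose, with a median of -0.27, but without each library in turn 1, 48, 0 and 3 fell. Cyc1, cytochrome c1, was at 10.8 and 10.9 RPKM at 10–30 μm and 6.07 and 7.71 RPKM at 40–45 μm (log2 change -0.57 ± 0.11, adjusted p = 0.01). Among the 13 genes of the mitochondrial genome the median change was -0.57, 2 fell (15.4% against 9.73% of all genes) and 1 rose (7.69% against 12.5%). The other 10 were not called. Among these the abundant mt-Co1 was at 495 and 553 RPKM at 10–30 μm and 258 and 405 RPKM at 40–45 μm (95% confidence interval of the log2 change -1.12 to -0.10, adjusted p = 0.084). The oxidase subunit mt-Co3 went from 643 and 554 RPKM to 295 and 383 RPKM (log2 change -0.75 ± 0.16, adjusted p = 0.015), and mt-Nd6, encoded on the other strand from most of these genes, rose from 2.79 and 3.38 RPKM to 9.82 and 6.31 RPKM (log2 change 1.41 ± 0.30, adjusted p = 0.014); each was called in 2 of 4 leave-outs.

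**Figure D4:**
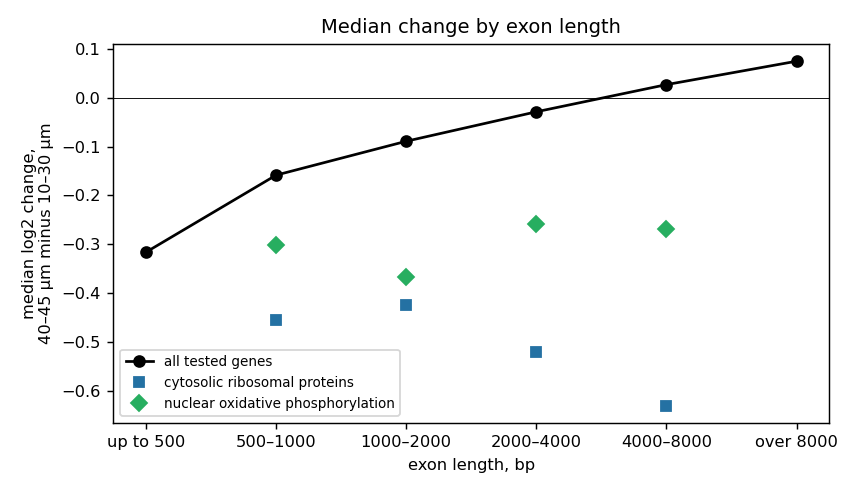
Median log2 change by exon length (horizontal axis, bp) for all tested genes (line) and for 2 lists (squares and diamonds). Ribosomal protein and oxidative phosphorylation genes lie below the line in every length class shown.

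Of 11 genes of DNA methylation 2 rose (18.2% against 12.5% of all genes), and 1, 4, 1 and 1 did without each library in turn. Dnmt3l, the cofactor of the de novo methyltransferases, was low and went from 0.825 and 0.888 RPKM to 3.65 and 2.701 RPKM (log2 change 1.84 ± 0.19, adjusted p = 8.73e-04), then to 6.21 and 5.35 RPKM at 50–55 μm and 11.3 and 8.25 RPKM at 60–65 μm. Zfp57, which protects imprints, rose from 50.4 and 59.5 RPKM to 61.5 and 74.4 RPKM (log2 change 0.39 ± 0.11, adjusted p = 0.038), a call kept in 1 of 4 leave-outs. Dnmt1, the maintenance enzyme, was at 328 and 416 RPKM at 10–30 μm and 398 and 486 RPKM at 40–45 μm (95% confidence interval of the log2 change 0.02 to 0.65, adjusted p = 0.12). Of 19 tested H3K4 and H3K36 enzymes 2 rose and 3 fell (10.5% and 15.8%, against 12.5% and 9.73% of all genes). The H3K4 demethylase Kdm5b fell from 1.75 and 2.04 RPKM to 0.566 and 0.751 RPKM (log2 change -1.33 ± 0.14, adjusted p = 8.73e-04). Kdm2b, another enzyme of this mixed list, rose from 2.45 and 3.96 RPKM to 5.77 and 6.53 RPKM (log2 change 1.04 ± 0.19, adjusted p = 0.0073). The H3K4 demethylase Kdm1b was at 99.2 and 115 RPKM at 10–30 μm and 99.8 and 107 RPKM at 40–45 μm (95% confidence interval of the log2 change -0.20 to 0.27, adjusted p = 0.83).

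Of 25 tested genes of maternal RNA storage and decay 7 rose (28% against 12.5% of all genes), and 0 fell; without each library in turn 6, 9, 5 and 8 rose. Zar1l, a paralog of the maternal factor Zar1, went from 19.4 and 17.6 RPKM to 36.4 and 30.7 RPKM (log2 change 0.93 ± 0.14, adjusted p = 0.0037), and Pabpc1l, a poly(A)-binding protein of oocytes, from 11.05 and 13.9 RPKM to 21.02 and 21.7 RPKM (log2 change 0.86 ± 0.11, adjusted p = 0.0015). Connexin 37, Gja4, which couples the oocyte to granulosa cells, was at 42.6 and 58.5 RPKM at 10–30 μm and 60.1 and 72.1 RPKM at 40–45 μm (log2 change 0.48 ± 0.14, adjusted p = 0.042) and was called in 1 of 4 leave-outs. Of 17 tested genes of oocyte junctions and the egg surface, among them Gja4, 6 rose (35.3% against 12.5% of all genes) and 1 fell, and without each library in turn 2, 7, 2 and 3 rose. Cd81, a tetraspanin of the cell surface, fell from 1.98 and 1.58 RPKM to 0.689 and 0.736 RPKM (log2 change -1.13 ± 0.15, adjusted p = 0.0024). Folr4, the egg receptor for sperm, went from 4.05 and 4.58 RPKM to 9.49 and 8.101 RPKM (log2 change 1.09 ± 0.11, adjusted p = 8.60e-04). The tubulin Tubb3 went from 16.2 and 16.5 RPKM to 32.4 and 31.5 RPKM (log2 change 1.04 ± 0.09, adjusted p = 5.94e-04). Of the BCL2 family, Bcl2l10 rose from 159 and 143 RPKM to 275 and 228 RPKM (log2 change 0.82 ± 0.15, adjusted p = 0.0071), and the death-promoting Bax fell from 8.63 and 7.57 RPKM to 4.51 and 4.87 RPKM (log2 change -0.69 ± 0.11, adjusted p = 0.0044). Bid, also death-promoting, went from 0.972 and 0.856 RPKM to 0.15 and 0.259 RPKM (log2 change -1.69 ± 0.18).

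Genes that hold the oocyte in meiotic arrest or act in later divisions rose in 6 cases of 26 tested (23.1% against 12.5% of all genes), and 1 fell; without each library in turn 5, 6, 1 and 4 rose. Bub1b, a spindle checkpoint kinase, went from 25.5 and 26.2 RPKM to 44.002 and 39.2 RPKM (log2 change 0.77 ± 0.12, adjusted p = 0.0035). Pde3a, the phosphodiesterase that breaks down cAMP in the oocyte, went from 5.41 and 8.37 RPKM to 9.31 and 10.7 RPKM (log2 change 0.65 ± 0.18, adjusted p = 0.034), and Gpr3, the receptor that keeps cAMP high, from 1.94 and 3.02 RPKM to 3.19 and 3.96 RPKM (log2 change 0.62 ± 0.18, adjusted p = 0.041); both were called in 1 of 4 leave-outs. In the SMAD list, 4 of 16 rose (25% against 12.5% of all genes) and 2 fell, 1 of them (Id1) let in through the smaller class alone, with 2, 5, 0 and 2 and 1, 2, 1 and 1 without each library in turn. The BMP receptor Bmpr1b went from 4.799 and 4.83 RPKM to 7.16 and 6.41 RPKM (log2 change 0.57 ± 0.11, adjusted p = 0.0094), and Id1, a target of BMP signalling, fell from 1.25 and 0.949 RPKM to 0.327 and 0.293 RPKM (log2 change -1.47 ± 0.17).

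Of 71 tested histone genes, 16 fell (22.5% against 9.73% of all genes; 2 of them, Hist1h2ap and Hist1h3b, let in through the smaller class alone) and 4 rose, and without each library in turn 6, 34, 6 and 7 fell and 4, 3, 0 and 3 rose. Hist1h4d, encoding histone H4, went from 19.5 and 14.04 RPKM to 6.52 and 8.58 RPKM (log2 change -1.05 ± 0.20, adjusted p = 0.0091), and Hist1h2ba, a variant of H2B found in germ cells, rose from 35.9 and 23.3 RPKM to 59.98 and 44.4 RPKM (log2 change 0.91 ± 0.23, adjusted p = 0.027). Summed over the list, the scaled RPKM was 2319 and 1761 at 10–30 μm and 2327 and 2067 at 40–45 μm, so that the sum was not lower at 40–45 μm. Histone genes of a cluster are nearly identical, so that these values are uncertain.

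In the lysosome and autophagy list, 8 of 44 fell (18.2% against 9.73% of all genes) and 3 rose, with Hexa and Grn let in through 1 class alone, and without each library in turn 5, 11, 4 and 7 fell. The protease Ctsl went from 4.41 and 3.53 RPKM to 1.51 and 1.74 RPKM (log2 change -1.15 ± 0.14, adjusted p = 0.0015) and the hexosaminidase subunit Hexa from 0.971 and 0.978 RPKM to 0.378 and 0.384 RPKM (log2 change -1.09 ± 0.11), while Ctsh, which is named above and is not in this list, rose. Progranulin, Grn, went from 0.22 and 0.485 RPKM to 0.975 and 1.03 RPKM (log2 change 1.42 ± 0.23). Among 61 translation factors 6 rose and 7 fell (9.84% and 11.5%, near the shares of all genes), with 5, 7, 4 and 5 and 5, 14, 3 and 5 without each library in turn. Eif4e1b, a form of the cap-binding protein made in oocytes, went from 25.8 and 30.1 RPKM to 38.5 and 43.6 RPKM (log2 change 0.64 ± 0.11, adjusted p = 0.005), and the elongation factor Eef1g from 8.76 and 8.07 RPKM to 4.44 and 4.76 RPKM (log2 change -0.78 ± 0.10, adjusted p = 0.002). The inducible heat shock gene Hspa1b was low and rose from 0.75 and 0.801 RPKM to 2.07 and 1.72 RPKM (log2 change 1.26 ± 0.13, adjusted p = 9.11e-04), and Hspa1a, its near-identical neighbour, went from 0.276 and 0.274 RPKM to 0.734 and 0.598 RPKM (log2 change 1.09 ± 0.14). Few members were called in lists for the proteasome (0 higher and 1 lower of 34), splicing (0 and 3 of 64) and DNA replication (0 and 1 of 27), against 12.5% and 9.73% of all genes. Without the 10–30 μm library B, 6 proteasome and 12 splicing genes fell and 0 and 4 rose, and without each of the others 0 were called in either list.

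Of the X-linked genes, 67 of 315 tested (21.3%) fell, against 9.73% over all genes, 12 of them let in through the smaller class alone. Rises numbered 33 (10.5%, against 12.5% over all genes), 9 of them let in through the larger class alone. These differences have no test. Without each library in turn 10.5, 27.6, 8.57 and 13.02% of X-linked and 4.01, 13.4, 2.67 and 5.46% of autosomal genes fell. Mageb4, of the MAGE family and chosen after its values were seen, went from 2.48 and 2.097 RPKM to 0.275 and 0.485 RPKM (log2 change -2.28 ± 0.21).

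**Figure D5:**
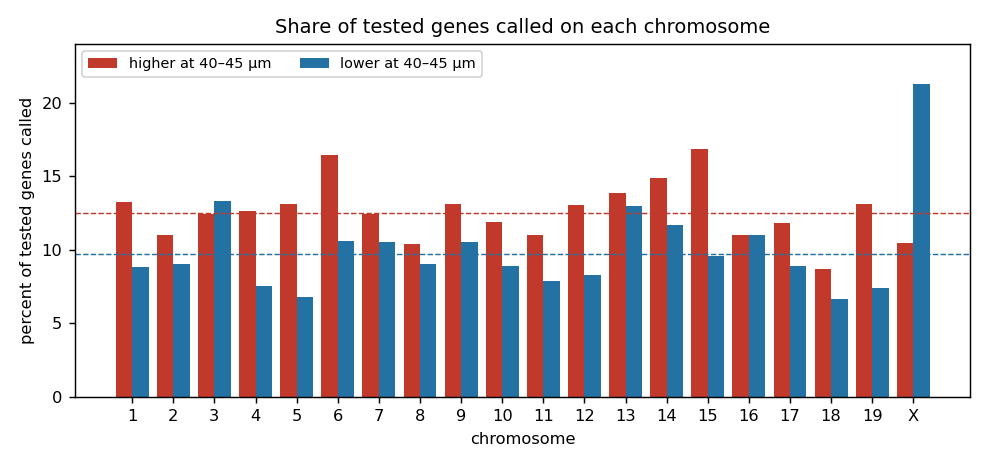
Share of tested genes called higher (red) and lower (blue) at 40–45 μm on each chromosome (vertical axis, percent), with dashed lines at the shares over all genes, 12.5% and 9.73%. The X chromosome has the highest blue bar, at 21.3%.

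Among long noncoding RNAs, 35 of 79 lincRNA genes (44.3%) and 18 of 58 antisense genes (31.03%) rose, against 12.5% of all, a comparison with no test. The filter let in 9 of the 35 and 2 of the 18 through the larger class alone. Without each library in turn the lincRNA count was 29, 29, 20 and 30 and the antisense count 20, 14, 8 and 15. The nuclear RNA Malat1, chosen after its values were seen, fell from 30.01 and 28.5 RPKM to 13.5 and 14.9 RPKM (log2 change -0.96 ± 0.13, adjusted p = 0.0027).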

How the data were processed

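Strand-specific total RNA libraries of 4 samples, in 2 size classes, were compared. The authors trimmed the reads (Trim Galore), mapped these with TopHat2 2.0.9 to build GRCm38 at 1 alignment per read, and deposited 1 table of RPKM per gene; the submitters' processing notes name these tools, the methods name Cufflinks for transcript levels in FPKM and SeqMonk for analysis, and which of them made the RPKM table is not stated. Samples were grouped by the size in their titles. The members and lists were chosen with earlier results of these data known.

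RPKM were scaled by a trimmed mean (30% by ratio, 5% by level) and analysed as log2(RPKM + 0.1) with limma 3.58.1 in R 4.3.3, with a trend in the variance and a mean per class over the 8 libraries of growing oocytes, keeping genes that reached 0.5 RPKM in at least 2 libraries of 4. P-values had Benjamini-Hochberg adjustment over 10064 genes. Log2 changes are given with standard errors or unadjusted 95% intervals and understate the change of low genes. The test was tried on simulated data. Whole reads were recovered from the steps of the values for 10046 of the genes (99.8%), and the reads in tested genes are sums of these; voom on these reads was an added alternative.

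Named genes were the 10 largest rises and falls with an adjusted p under 0.05, at least 5 RPKM in the higher class, separate libraries and a known function (unnamed gene models were counted), up to 4 called and 2 uncalled members of each list, and 16 genes named whatever their values. Other scalings, pseudocounts, filters, variance models and left-out libraries were tried. Methylation files were not used here. Python 3.11.15 with pandas 2.3.3 and matplotlib 3.10.9 made tables and figures.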

Additional observations from a re-analysis of the deposited data

How the results depend on the processing

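With 2 libraries a class, a left-out library leaves 1 in its class, which is assumed to vary like the others. The number of genes that rose ranged from 508 to 1541 and of genes that fell from 287 to 1398 over the 4 left-out libraries. With only the 4 libraries in the fit 591 rose and 371 fell, with a filter of 2 RPKM 785 and 596 (6786 genes tested), and with RPKM as deposited 1518 fell. Of the genes called with the reported settings, none changed sign under an alternative that tested it. Voom on recovered reads, chosen after seeing the data, called 1257 and 986. 

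A replicate block (letters A and B) called 1681 and 1363. With the block Zp1 and Dnmt1 were called higher (log2 0.403 and 0.334), and 60 cytosolic ribosomal, 24 oxidative phosphorylation and 11 mitochondrial genome genes fell. The letters are not stated to mark a shared animal or day, and the correlation of the differences between B and A was 0.619 for 10–30 with 40–45 μm, 0.609 for 10–30 with 50–55 μm and 0.675 for 40–45 with 50–55 μm, but -0.249, -0.0611 and 0.0631 for these 3 classes with 60–65 μm. The letters thus deviated together in the classes compared but not in all 4, and they were not taken as pairs.

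Values near 0 that were not called changed sign under some settings. Log2 changes were Dazl -0.08178, Fbxw17 -0.007532, Kdm1b -0.04557, Syce2 -0.06231, Zp2 -0.01998 with RPKM as deposited, Dazl -0.09786, Kdm1b -0.07714, Nlrp14 -0.01784, Syce2 -0.08383, Zp2 -0.07855 with quantile normalization and Dazl -0.02748, Syce2 -0.008068 with a filter of 2 RPKM. Over the left-out libraries they ranged from -0.21 to 0.211 for Dazl, -0.144 to 0.0516 for Ddx4, -0.0211 to 0.095 for Kdm1b, -0.319 to 0.197 for Kit, -0.247 to 0.00802 for Nobox, -0.0663 to 0.107 for Syce2, -0.0413 to 0.305 for Zp3.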
